A study of Mus musculus with 25 samples.

Results

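The reactive astrocyte genes described here are 10 of the 54532 genes in a cortical RNA sequencing table: Gfap, Vim, Serpina3n, Osmr, Cd44, S100a6, Lcn2, Timp1, Slc14a1 and Cp. They were chosen by gene symbol, and each symbol matched 1 row. Expression was measured in cortex from 25 mice in 5 groups of 5: 5xFAD transgenic mice given vehicle (AD_Veh), a low dose of P (AD_LowP) or a high dose of P (AD_HighP), and wild-type mice given the high dose of P (WT_HighP) or vehicle (WT_Veh). P is a derivative of a natural product; what it is, its doses, how long it was given and how old the mice were are not stated in the labels. The 5xFAD line carries human transgenes under Thy1 promoter sequences, which drive them in neurons, and the line models amyloid deposition rather than the whole of Alzheimer's disease.

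Astrocytes are the glial cells that take up transmitters, buffer ions and line vessels with their endfeet. Around amyloid deposits they become reactive: they enlarge, build intermediate filaments from GFAP and vimentin, and secrete protease inhibitors and acute-phase proteins. Cytokines of the interleukin-6 family, acting through receptors such as the oncostatin M receptor and the transcription factor STAT3, are a well-known inducer of this state, and interleukin-1, TNF and the complement protein C1q released by microglia are others.

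Each library held 15518358 to 17698222 reads assigned to genes. Homeostatic astrocyte markers were present in all groups: the 20 markers, none of them at 0 in any group, summed to 1340 to 1706 FPKM per mouse. Thy1, whose promoter sequences drive the transgenes, had 458 ± 78.0 FPKM in AD_Veh and 155 ± 15.6 FPKM in WT_Veh (SD, n = 5 each; log2 fold change 1.55, adjusted p = 1.8e-08), whereas App had 139 ± 10.5 FPKM in AD_Veh and 145 ± 5.80 FPKM in WT_Veh (adjusted p = 0.81). Xist and genes of the Y chromosome marked mice 1 to 3 of every group as male and mice 4 and 5 as female. The choroid plexus marker Ttr was over 10 times its median in 5 libraries, which were mice 1 and 4 of AD_HighP, mice 1 and 2 of WT_HighP and mouse 1 of WT_Veh. The trend of expression on gene GC content also differed, with a median slope of 0.189 in WT_HighP and -0.151 in WT_Veh (log2 units per 10 points of GC). Over all tested genes, log2 fold changes followed GC content, with Spearman's rho of 0.34 for AD_Veh against WT_Veh and -0.34 for AD_HighP against WT_HighP. For high P against vehicle rho was 0.71 in wild-type and 0.37 in 5xFAD mice. What these library differences contribute to the genotype values and the values of P was not tested beyond the alternatives given below.

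In vehicle-treated cortex, 6 of the 9 genes with enough signal to test were higher in 5xFAD than in wild-type mice: Gfap, Serpina3n, Vim, Slc14a1, S100a6 and Osmr. Over all 16450 genes tested, 2.83% were higher at the same threshold, an adjusted p under 0.05. The same 6 genes were those whose 5 AD_Veh mice all lay above all 5 WT_Veh mice, against 3.02% of the genes tested. The log2 fold changes of the 9 genes had a median of 1.24 and a range of 0.13 to 3.69, and the median of all tested genes was -0.02. Cd44, Timp1 and Cp did not pass the test, and Lcn2 was too low to enter it. Tissue of this kind mixes cell types, so from the level of 1 gene more astrocytes and more RNA per astrocyte cannot be told apart. Markers of homeostatic astrocytes, which are RNA levels too and do not count cells, summed to 1443 to 1630 FPKM in AD_Veh and 1377 to 1680 FPKM in WT_Veh. Their median log2 fold change was 0.07, with 1 of 20 called and 6 at an unadjusted p under 0.05 by limma. Gfap per 100 FPKM of these markers differed by 3.65 on the log2 scale. Whether the number of astrocytes differed was not tested.

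**Figure D1:**
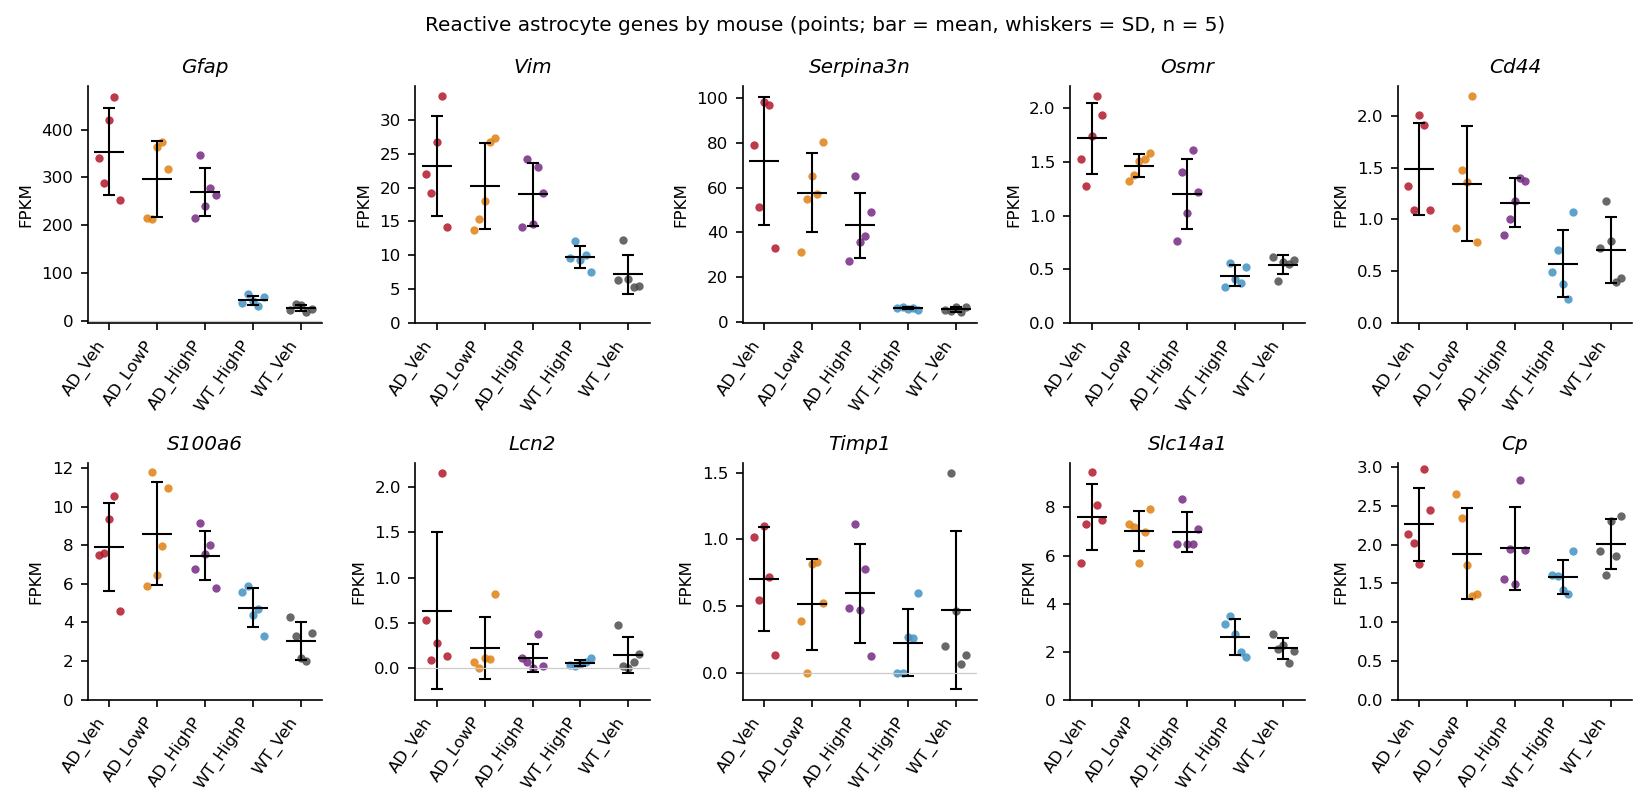
FPKM of each of the 10 genes (vertical axes, 1 panel per gene) in each of the 25 mice, by group; points are mice, bars means and whiskers SD (n = 5). The 15 5xFAD mice lay between 213 and 469 FPKM for Gfap, above the 10 wild-type mice at 17.9 to 55.3 FPKM, while Cp and Timp1 overlapped between all groups.

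Both filament genes were higher in 5xFAD mice, Gfap by far the more. Gfap (ENSMUSG00000020932, minus strand, chr11:102887336-102900912 in mm10) encodes the main intermediate filament protein of astrocytes and overlaps a noncoding gene, Gm26668, on the other strand. It had 341, 288, 421, 469 and 253 FPKM in the AD_Veh mice and 23.5, 34.8, 34.2, 17.9 and 25.3 FPKM in the WT_Veh mice. Every AD_Veh mouse stood above every WT_Veh mouse, and within AD_Veh the mice 3 and 4 were highest and mouse 5 lowest. The means of 354 ± 90 and 27.1 ± 7.26 FPKM (SD, n = 5 each) differ 13.1-fold, and the log2 fold change of 3.69 (95% interval 3.25 to 4.12, adjusted p = 2.6e-11) was the third smallest p-value of all 16450 genes.

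Gfap stayed high in both treated 5xFAD groups. It had 214, 213, 365, 375 and 318 FPKM in AD_LowP and 215, 348, 241, 278 and 262 FPKM in AD_HighP. In WT_HighP it had 38.5, 55.3, 41.2, 31.3 and 49.6 FPKM, a range that overlapped that of WT_Veh but no 5xFAD mouse. Gfap was also higher in AD_HighP than in WT_HighP (269 ± 50.2 and 43.2 ± 9.43 FPKM, log2 fold change 2.63, 95% interval 2.20 to 3.07, adjusted p = 1.7e-08).

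Vim (ENSMUSG00000026728, plus strand, chr2:13573927-13582826) encodes vimentin, which co-assembles with GFAP in reactive astrocytes and is also made by endothelial, meningeal and ependymal cells. It had 22, 19.3, 26.8, 33.5 and 14.2 FPKM in AD_Veh and 6.40, 12.2, 6.56, 5.32 and 5.48 FPKM in WT_Veh. The groups did not overlap, although WT_Veh mouse 2 came close to AD_Veh mouse 5. The log2 fold change was 1.63 (95% interval 1.14 to 2.11, adjusted p = 5.7e-05). Under high P the difference was smaller, with 19.0 ± 4.63 FPKM in AD_HighP and 9.69 ± 1.63 FPKM in WT_HighP (log2 fold change 0.92, 95% interval 0.43 to 1.41, adjusted p = 0.043), and the groups again did not overlap. That last call was made in 3 of 10 fits that left out 1 mouse: its adjusted p ran from 0.033 to 0.15, and it missed the threshold without any one of AD_HighP mice 2, 4 or 5 or WT_HighP mice 1, 3, 4 or 5. Without the libraries of high Ttr the log2 fold change was 1.05 (adjusted p = 0.28).

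Of 10 other filament and linker genes, among them nestin, synemin, plectin, the lamins and the neurofilaments, 0 were called in either genotype comparison, by limma; Nes and Synm, the filament partners known from reactive astrocytes, had log2 fold changes of 0.36 (unadjusted p = 0.034, adjusted p = 0.37) and 0.27 (unadjusted p = 0.036, adjusted p = 0.38) between AD_Veh and WT_Veh. Markers of the other cells that make vimentin had 0 called genes between AD_Veh and WT_Veh: 0 of 10 endothelial and mural, 0 of 8 meningeal and 0 of 5 ependymal (0, 0 and 1 at an unadjusted p under 0.05). Their summed FPKM overlapped, at 105 to 136 in AD_Veh and 105 to 138 in WT_Veh for vessels and 12.2 to 19.1 in AD_Veh and 5.23 to 24.6 in WT_Veh for meninges. The 6 ependymal markers summed to 3.90 to 9.75 FPKM in AD_Veh (median 5.28) and 1.68 to 5.17 FPKM in WT_Veh (median 3.89), and the 5 tested ones had a median log2 fold change of 0.36. The 8 tested meningeal markers had log2 fold changes of 0.11 to 0.76 (median 0.24), and the 10 of vessels -0.20 to 0.17 (median 0.01). The part of vessels, meninges and ependyma in the Vim difference was not tested.

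The start regions of Gfap and of the members whose spread followed it most closely, Vim and Serpina3n, are shown because the induction of reactive astrocytes runs through STAT3, whose palindromic site was searched in them. Each line gives the strand's 250 bases before and 30 bases after a RefSeq start on GRCm38.p6 (the assembly called mm10), and capitals mark the 1 match to TTCNNNGAA. The windows are chr11:102897171-102897450 (minus strand), chr2:13574061-13574340 (plus) and chr12:104406458-104406737 (plus).
Gfap: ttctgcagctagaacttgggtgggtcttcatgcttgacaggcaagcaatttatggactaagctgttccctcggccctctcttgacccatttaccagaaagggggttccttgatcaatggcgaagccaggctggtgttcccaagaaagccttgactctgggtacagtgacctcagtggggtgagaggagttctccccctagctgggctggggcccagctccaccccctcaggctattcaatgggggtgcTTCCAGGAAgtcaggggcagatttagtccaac
Vim: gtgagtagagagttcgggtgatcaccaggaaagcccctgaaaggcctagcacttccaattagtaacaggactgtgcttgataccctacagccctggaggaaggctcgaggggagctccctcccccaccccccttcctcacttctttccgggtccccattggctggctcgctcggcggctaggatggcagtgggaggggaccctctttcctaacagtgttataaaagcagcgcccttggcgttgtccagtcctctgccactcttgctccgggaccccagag
Serpina3n: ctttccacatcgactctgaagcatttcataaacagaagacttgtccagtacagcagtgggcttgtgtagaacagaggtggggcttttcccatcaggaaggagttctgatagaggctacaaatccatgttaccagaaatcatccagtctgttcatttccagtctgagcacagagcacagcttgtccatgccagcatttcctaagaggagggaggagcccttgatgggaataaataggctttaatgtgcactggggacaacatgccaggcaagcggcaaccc

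The Gfap match began 2 bases before the start. TTCNNNGAA, which reads the same on both strands, occurred in 7.83% of 32851 windows of the same length, and no other window of these genes held it. RefSeq start windows were found for 9 of the 10 genes, Cp with a pair of them. TGANTCA, a loose form of the AP-1 motif that allows any base in the middle, was matched in 1 Cp window and in the Osmr window. Both matches read TGATTCA, and 7.46% of all windows held a match to the loose form. Both strands were searched. These are matches of letters, with no measure of binding in the data.

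Of Serpina3n, Timp1 and Cp, only Serpina3n passed the test, and Lcn2 was too low to enter it. Serpina3n (ENSMUSG00000021091, plus strand, chr12:104406729-104414329) encodes an acute-phase serine protease inhibitor of the antichymotrypsin family. It had 79.1, 51.4, 98.3, 96.9 and 33.2 FPKM in AD_Veh and 5.52, 5.09, 6.57, 4.30 and 6.87 FPKM in WT_Veh. The lowest AD_Veh mouse stood well above the highest WT_Veh mouse, and mouse 5 was again the lowest of its group. The log2 fold change was 3.46 (95% interval 2.91 to 4.00, adjusted p = 2.5e-09). In AD_HighP it had 27.2, 65.1, 35.5, 38.6 and 49.3 FPKM and in WT_HighP 6.44, 6.59, 5.92, 6.24 and 5.54 FPKM, again without overlap (log2 fold change 2.66, 95% interval 2.11 to 3.20, adjusted p = 4.6e-07). AD_LowP lay between 31.4 and 80.2 FPKM. Serpina3n belongs to a cluster of closely related genes, and reads shared among them can be split by counting; the 10 other genes of the cluster together reached at most 1.04 FPKM in any mouse, and 0 of them passed the filter.

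Timp1 (ENSMUSG00000001131, plus strand, chrX:20870166-20874735) encodes a secreted inhibitor of matrix metalloproteinases. It had 1.02, 0.544, 1.10, 0.720 and 0.133 FPKM in AD_Veh, from 2 to 16 reads, and 0.203, 1.49, 0.465, 0.0666 and 0.137 FPKM in WT_Veh, from 1 to 22 reads. The highest mouse of both groups was WT_Veh mouse 2, so the groups overlapped fully, and the log2 fold change of 0.40 had a 95% interval of -0.32 to 1.12 (adjusted p = 0.75). Timp1 lies inside Syn1 on the opposite strand, a neuronal gene at 179 to 322 FPKM, and counting by strand is not stated, so its few reads are uncertain. Of 12 tested genes for other TIMPs, matrix metalloproteinases and ADAM proteases, 0 were called by limma in either genotype comparison, with 2 at an unadjusted p under 0.05 between AD_Veh and WT_Veh and 0 between AD_HighP and WT_HighP.

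Lcn2 (ENSMUSG00000026822, minus strand, chr2:32384633-32388252) encodes lipocalin 2, an iron-siderophore binding protein made by reactive astrocytes and neutrophils. It reached 0.5 FPKM in 3 of 25 libraries. It had 0.530, 0.0920, 0.280, 2.15 and 0.135 FPKM in AD_Veh, which is 4 to 88 reads, and 0.480, 0.0230, 0, 0.0676 and 0.162 FPKM in WT_Veh, which is 0 to 21 reads. Only AD_Veh mouse 4 stood apart, and the groups overlapped (two-sided exact permutation p = 0.17, adjusted over 6 comparisons 0.50). A count of 0 reads allows up to 3 at this depth. Of the 12 neutrophil and red blood cell markers, Ngp, Camp, Ly6g, Elane, Mpo and Alas2 did not pass the filter. The rest were S100a8, S100a9 and haemoglobin genes. All 12 summed to 29.3 FPKM in AD_Veh mouse 4, within the 2.65 to 51.8 FPKM of that group. In WT_Veh they summed to 2.86 to 21.7 FPKM. The sum does not tell neutrophil from red blood cell RNA.

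Cp (ENSMUSG00000003617, plus strand, chr3:19957054-20009145) encodes ceruloplasmin, a copper ferroxidase that astrocytes carry on their membrane. It had 2.14, 2.02, 1.74, 2.98 and 2.44 FPKM in AD_Veh and 1.91, 1.60, 2.31, 1.85 and 2.37 FPKM in WT_Veh. The ranges overlapped between 1.74 and 2.37 FPKM (log2 fold change 0.13, 95% interval -0.20 to 0.46, adjusted p = 0.84). Cp also overlapped between AD_HighP and WT_HighP (1.95 ± 0.535 and 1.58 ± 0.219 FPKM, adjusted p = 0.71), and it overlaps Hps3 on the other strand. Among 10 tested genes for iron and copper handling partners of ceruloplasmin and lipocalin 2, Heph, a related ferroxidase, was the 1 gene called between AD_Veh and WT_Veh, at 0.603 ± 0.139 and 1.17 ± 0.234 FPKM (log2 fold change -0.59, adjusted p = 0.031). Tfrc, the transferrin receptor, was the 1 gene called between AD_HighP and WT_HighP, at 24 ± 3.51 and 16 ± 3.29 FPKM (log2 fold change 0.58, adjusted p = 0.0075).

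Osmr (ENSMUSG00000022146, minus strand, chr15:6813577-6874969) encodes the oncostatin M receptor, which pairs with gp130 to signal through STAT3. It had 1.53, 1.27, 1.74, 2.12 and 1.93 FPKM in AD_Veh and 0.614, 0.393, 0.569, 0.547 and 0.590 FPKM in WT_Veh. The levels were low, but each value rested on 79 to 401 reads and the groups stood wide apart (log2 fold change 1.08, 95% interval 0.81 to 1.35, adjusted p = 4.1e-06). In AD_HighP it had 0.765, 1.40, 1.03, 1.61 and 1.22 FPKM and in WT_HighP 0.336, 0.562, 0.409, 0.374 and 0.521 FPKM, with no overlap (log2 fold change 0.84, adjusted p = 0.00026). Since 0.5 FPKM was added before the logarithm, these values understate the ratio of mean FPKM, which was 3.17 between AD_Veh and WT_Veh and 2.74 between AD_HighP and WT_HighP.

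Of 14 tested genes of the interleukin-6 family and its STAT3 signalling, 2 were higher in AD_Veh than in WT_Veh, namely Stat3 and Il6st. Stat3, the transcription factor, had 8.97 ± 0.721 FPKM in AD_Veh and 5.4 ± 0.511 FPKM in WT_Veh (log2 fold change 0.68, adjusted p = 1.2e-05). Il6st, which encodes gp130, had 12.2 ± 1.78 and 9.03 ± 0.630 FPKM (log2 fold change 0.40, adjusted p = 0.0067). Socs3, a feedback inhibitor induced by STAT3, had a log2 fold change of 0.83 that missed the threshold (adjusted p = 0.088). Between AD_HighP and WT_HighP limma called 0 of the 14, with 4 at an unadjusted p under 0.05. Osm, the ligand of the receptor, did not pass the filter: it had 0.197 to 0.511 FPKM in AD_Veh and 0 to 0.398 FPKM in WT_Veh, from at most 19 reads.

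Slc14a1 (ENSMUSG00000059336) encodes the urea transporter UT-B of astrocytes and red blood cells. It had 5.68, 7.31, 9.47, 8.12 and 7.46 FPKM in AD_Veh and 2.73, 2.13, 2.26, 1.52 and 2.02 FPKM in WT_Veh. All 5xFAD mice of the study lay at 5.68 to 9.47 FPKM, above all wild-type mice at 1.52 to 3.48 FPKM. The log2 fold change was 1.62 in vehicle-treated mice (95% interval 1.31 to 1.93, adjusted p = 6.4e-08) and 1.29 between AD_HighP and WT_HighP (adjusted p = 4.6e-06).

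S100a6 (ENSMUSG00000001025, plus strand, chr3:90612882-90624181) encodes calcyclin, a calcium-binding S100 protein. It had 7.48, 7.59, 9.35, 10.6 and 4.58 FPKM in AD_Veh and 4.30, 3.31, 2.16, 1.99 and 3.46 FPKM in WT_Veh. The lowest AD_Veh mouse barely cleared the highest WT_Veh mouse (log2 fold change 1.24, 95% interval 0.79 to 1.69, adjusted p = 0.00066). In AD_HighP it had 7.46 ± 1.28 FPKM and in WT_HighP 4.77 ± 1.02 FPKM, which overlapped (log2 fold change 0.60, 95% interval 0.15 to 1.05, adjusted p = 0.25). Of 8 other S100 genes tested, S100a16 was the 1 gene called in vehicle-treated mice, at 35.5 ± 6.35 FPKM in AD_Veh and 24.1 ± 3.40 FPKM in WT_Veh (log2 fold change 0.55, adjusted p = 0.032), and 0 were called by limma under high P, where 0 had an unadjusted p under 0.05.

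Cd44 (ENSMUSG00000005087, minus strand, chr2:102811141-102901665) encodes a hyaluronan and osteopontin receptor of the cell surface. It had 1.32, 1.10, 2.00, 1.91 and 1.09 FPKM in AD_Veh and 0.726, 1.18, 0.792, 0.393 and 0.438 FPKM in WT_Veh. Only WT_Veh mouse 2 reached into the AD_Veh range, and the log2 fold change of 0.73 (95% interval 0.27 to 1.18) missed the threshold at an adjusted p of 0.083. Of 10 fits that left out 1 mouse, only that without this mouse passed (log2 fold change 0.86, adjusted p = 0.036). The adjusted p of these fits ran up to 0.245. Between AD_HighP and WT_HighP it was 0.67 (95% interval 0.21 to 1.12, adjusted p = 0.17). Of its 6 tested ligand and hyaluronan genes, 1 was higher in AD_Veh than in WT_Veh: Spp1, which encodes osteopontin, at 38 ± 26.9 and 9.08 ± 7.08 FPKM (log2 fold change 2.01, adjusted p = 0.015).

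Between AD_HighP and WT_HighP, 5 of the 9 tested genes were higher, against 1.5% of all tested genes: Gfap, Serpina3n, Slc14a1, Osmr and Vim. The same 5 did not overlap between these groups, against 3.22% of the genes tested. The 9 log2 fold changes had a median of 0.84 (range 0.22 to 2.66), and that of all tested genes was 0.00. When all 15 5xFAD mice were set against all 10 wild-type mice, these 5 genes again stood fully apart, which 0.985% of the tested genes did. Between AD_Veh and WT_Veh all 9 genes had positive log2 fold changes, beside 46.1% of all tested genes. Between AD_HighP and WT_HighP all 9 did, beside 49.6%. The share of tested genes positive in both comparisons, which share no mice, was not computed. Timp1 reached 0.5 FPKM in 11 libraries, mostly of 5xFAD mice, and would not have passed the filter on wild-type mice alone. Its sign is therefore not separate support.

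**Figure D2:**
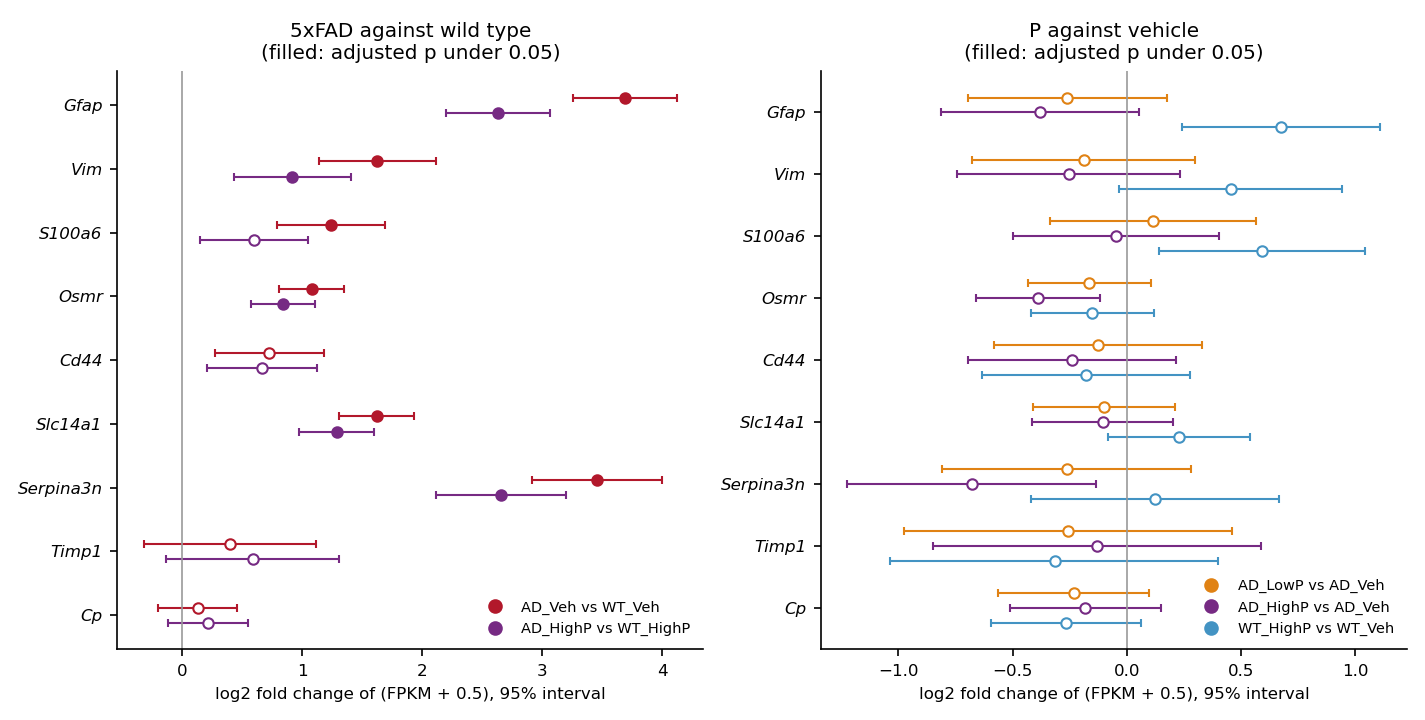
Log2 fold changes of FPKM + 0.5 with 95% intervals (horizontal axes) of the 9 tested genes (vertical), between genotypes in the left panel and between P and vehicle in the right panel; filled points passed an adjusted p of 0.05. Gfap (3.69) and Serpina3n (3.46) were the genes furthest to the right in the left panel, and 0 points were filled in the right panel.

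The balance between the genes also differed by genotype. Per FPKM of Vim, Gfap had 15.6 ± 1.40 FPKM in AD_Veh and 3.94 ± 0.963 in WT_Veh (SD, n = 5 each), a log2 difference of 2.01. It had 14.4 ± 1.64 in AD_HighP and 4.55 ± 1.27 in WT_HighP, a log2 difference of 1.69. Neither pair overlapped, and each had a two-sided exact permutation p of 0.0079, the smallest that 5 against 5 mice can give (adjusted over 12 ratio tests 0.024). In AD_LowP the ratio was 15.1 ± 3.19. Among the 10 genes' summed FPKM, Gfap made up 75.5% ± 2.42 in AD_Veh, 74.7% ± 4.34 in AD_LowP, 76.9% ± 1.43 in AD_HighP, 61.9% ± 5.19 in WT_HighP and 54.9% ± 4.02 in WT_Veh.

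Set against 100 FPKM of homeostatic astrocyte markers, Gfap had 23 ± 4.98 FPKM in AD_Veh, 20.1 ± 6.33 in AD_LowP, 17.7 ± 2.35 in AD_HighP, 2.80 ± 0.651 in WT_HighP and 1.85 ± 0.517 in WT_Veh. The log2 difference was 3.65 between AD_Veh and WT_Veh and 2.68 between AD_HighP and WT_HighP (exact permutation p = 0.0079 each, adjusted 0.024). Gfap alone already separated these groups fully, and the marker sums ran only from 1340 to 1706 FPKM over all mice. These p-values therefore add no support beyond the Gfap values. Of the 20 markers, 1 was higher in AD_Veh than in WT_Veh: Aqp4, the water channel of astrocyte endfeet, at 40.5 ± 11.6 and 20.8 ± 5.36 FPKM (log2 fold change 0.93, adjusted p = 0.0077). Between AD_HighP and WT_HighP limma called 0 of them, with 2 at an unadjusted p under 0.05.

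In 5xFAD mice given P, none of the 9 tested genes passed the test. For low P against vehicle, 0 of 9 were called (0% of all tested genes, with 491 genes at an unadjusted p under 0.05). For high P against vehicle, 0 of 9 were called (0.00608% of all tested genes, 983 at an unadjusted p under 0.05). For high against low P, 0 of 9 were called (0% of all tested genes, 1019 at an unadjusted p under 0.05). A voom fit of the reads recovered from the FPKM values called 0 genes in all of these comparisons.

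The comparisons of low and of high P with vehicle share the AD_Veh mice. Gfap had 297 ± 79.1 FPKM in AD_LowP and 269 ± 50.2 FPKM in AD_HighP, against 354 ± 90 FPKM in AD_Veh (log2 fold changes -0.26, 95% interval -0.69 to 0.17, and -0.38, 95% interval -0.81 to 0.05). Serpina3n had 57.7 ± 17.7 FPKM in AD_LowP and 43.1 ± 14.6 FPKM in AD_HighP, against 71.8 ± 28.7 FPKM in AD_Veh; for high P the log2 fold change was -0.68 (95% interval -1.22 to -0.14, unadjusted p = 0.016, adjusted p = 0.78). Osmr had 1.47 ± 0.109 FPKM in AD_LowP and 1.21 ± 0.326 FPKM in AD_HighP, against 1.72 ± 0.331 FPKM in AD_Veh (high P: log2 fold change -0.39, 95% interval -0.66 to -0.12, unadjusted p = 0.0065, adjusted p = 0.78). The ranges of the AD_HighP and AD_Veh mice overlapped for all 9 genes. Per 100 FPKM of homeostatic astrocyte markers the log2 difference of Gfap was -0.36 for high P against vehicle (exact permutation p = 0.071, adjusted over 12 ratio tests 0.14). Without AD_Veh mouse 5 it was -0.45 (unadjusted exact permutation p = 0.032), while the other 9 tests that left out 1 mouse did not fall under 0.05.

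The other tested genes had high P log2 fold changes between -0.25 (Vim) and -0.05 (S100a6) against AD_Veh, each with an interval that spans 0. The median over the 9 genes was -0.24 for high P and -0.19 for low P, beside 0.00 and -0.01 for all tested genes. In 5xFAD mice with high P, 115 tested genes (0.699%) lay wholly below vehicle, and 0 of these 9 did, which at that share does not set them apart. Lcn2 had 0.0666, 0, 0.115, 0.109 and 0.822 FPKM in AD_LowP and 0.119, 0.0666, 0, 0.375 and 0.0221 FPKM in AD_HighP, which overlapped AD_Veh (exact permutation p = 0.33 and 0.11, adjusted 0.65 and 0.50). The 10 microglial markers, whose medians ranked the 3 groups as the Gfap means did, summed to 277 to 365 FPKM in AD_Veh, 245 to 287 in AD_LowP and 221 to 293 in AD_HighP; 0 of the 10 were called for high P against vehicle (5 at an unadjusted p under 0.05), and their part in the values above was not tested.

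In wild-type mice, 0 of 9 genes and 3.17% of all tested genes were called for high P against vehicle (4581 at an unadjusted p under 0.05). At that share, 0 of 9 does not set these genes apart. The voom fit also called 0 of the 9. Gfap had the largest estimate, 43.2 ± 9.43 FPKM in WT_HighP and 27.1 ± 7.26 FPKM in WT_Veh (log2 fold change 0.68, 95% interval 0.24 to 1.11, adjusted p = 0.062). S100a6 followed with 4.77 ± 1.02 and 3.04 ± 0.965 FPKM (log2 fold change 0.59, 95% interval 0.14 to 1.04, adjusted p = 0.092). Of 10 fits that left out 1 mouse, S100a6 passed only in that without WT_Veh mouse 1 (adjusted p = 0.035), and the adjusted p ran up to 0.236. Per 100 FPKM of homeostatic astrocyte markers the log2 difference of Gfap was 0.61 (exact permutation p = 0.040, adjusted over 12 ratio tests 0.095). That unadjusted p was 0.063 to 0.095 without any one of WT_HighP mice 1, 2, 3 or 5 or WT_Veh mice 1, 4 or 5. The 5 tested ependymal markers had a median log2 fold change of 0.94 in this comparison, and 2 of them were higher: Tmem212 (1.27, adjusted p = 0.039) and Ccdc153 (1.19, adjusted p = 0.048). The ependymal sums were 3.63 to 15.2 FPKM in WT_HighP and 1.68 to 5.17 FPKM in WT_Veh. The 6 tested choroid plexus markers had a median log2 fold change of 0.91, and limma called 0 of them (0 at an unadjusted p under 0.05). The part of these cells in the Gfap and S100a6 values was not tested. After removal of the GC trend Gfap had a log2 fold change of 0.46 (adjusted p = 0.39) and S100a6 0.52 (adjusted p = 0.36), and the count of all genes called in this comparison was 23 with that removal and 0 without the libraries of high Ttr, against 522.

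The difference between the effects of high P in 5xFAD and in wild-type mice was tested directly as an interaction, which also equals the genotype difference under high P minus that under vehicle. It called 0 of the 9 genes and 0% of all tested genes by limma (1138 at an unadjusted p under 0.05), and voom called 0 genes. Gfap had the largest value, -1.05 (95% interval -1.67 to -0.44, unadjusted p = 0.0016, adjusted p = 0.71). Serpina3n had -0.80, Vim -0.71 and S100a6 -0.64, with unadjusted p-values of 0.042, 0.045 and 0.049. The smaller genotype differences under high P are therefore not shown to differ from those under vehicle. Over all tested genes the interaction values also followed gene GC content (Spearman's rho -0.52), whose part in the values above was not tested beyond the GC correction.

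Within the 5xFAD groups, mice with more Gfap had more Vim, Serpina3n and Timp1. With the means of the 3 5xFAD groups removed, Gfap and Vim correlated across the 15 5xFAD mice with Pearson's r = 0.88 and Spearman's rho = 0.88 (permutation p = 4e-05 and 2e-05, adjusted over 9 pairs 0.00036 and 0.00018). Without the mice farthest from the median of Gfap, AD_Veh mice 4 and 5, r was 0.83, and it was 0.87 in the 9 males and 0.95 in the 6 females. Gfap and Serpina3n had r = 0.82 and rho = 0.81 (permutation p = 0.00018 and 0.00045, adjusted 0.00081 and 0.0020), with r = 0.77 without the same pair of mice, 0.85 in males and 0.81 in females. Gfap and Timp1 had r = 0.75 and rho = 0.78 (permutation p = 0.0013 and 0.00099, adjusted 0.0038 and 0.0030), with r = 0.75 without that pair; the Timp1 values rest on 0 to 17 reads.

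Osmr, Cd44 and Lcn2 had r of 0.54, 0.54 and 0.52 with Gfap, each with an adjusted permutation p of 0.065 (rho 0.54, 0.53 and 0.58). For Osmr r was 0.71 in the males and 0.07 in the females, and with the means of group by sex removed it was 0.69 (adjusted permutation p = 0.0086). For S100a6 r was 0.41, for Slc14a1 0.22 and for Cp -0.24, with adjusted permutation p-values of 0.16, 0.43 and 0.43. Slc14a1 thus separated the genotypes fully while its spread within them was not shown to follow that of Gfap. Measures of the libraries moved with Gfap too, with r of 0.52 for the slope on GC content, 0.56 for the summed microglial markers and -0.37 for the mitochondrial share of reads; after removal of the GC trend r was 0.79 for Vim, 0.79 for Serpina3n and 0.60 for Timp1. In the 10 wild-type mice r with Gfap was 0.81 for Cd44, 0.51 for Timp1, 0.51 for Vim and 0.36 for Serpina3n.

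**Figure D3:**
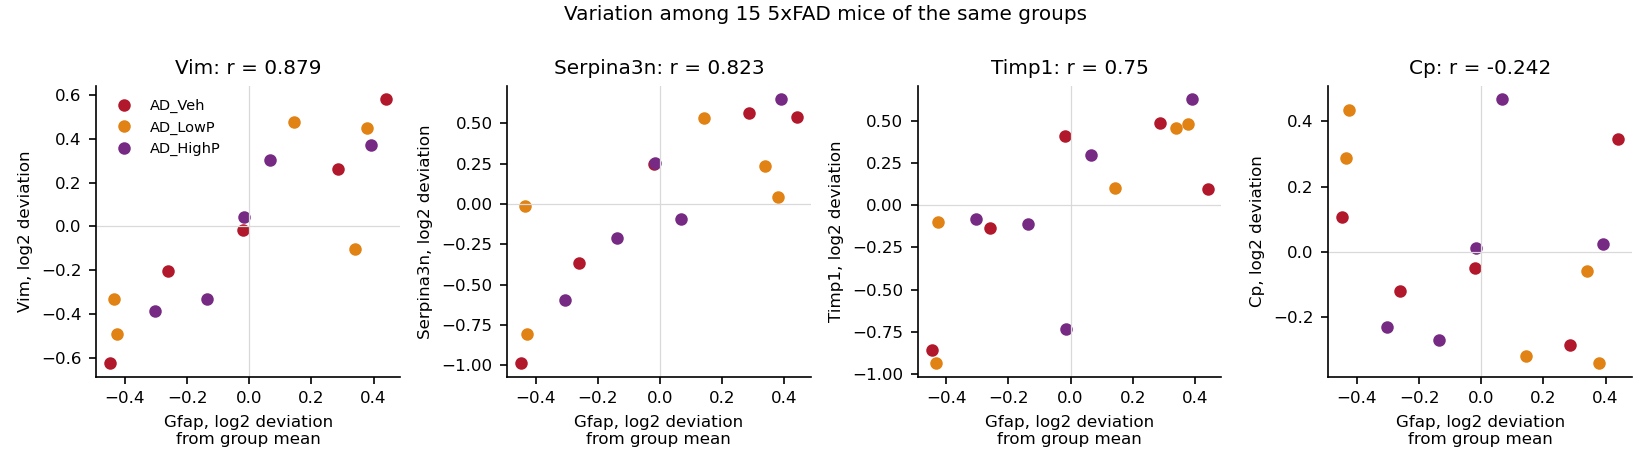
Log2 deviation from the group mean of Vim, Serpina3n, Timp1 and Cp (vertical axes, 1 panel each) against that of Gfap (horizontal axes) in the 15 5xFAD mice, coloured by group. Vim (r = 0.88), Serpina3n (r = 0.82) and Timp1 (r = 0.75) climb with Gfap, while Cp (r = -0.24) does not.

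Other genes reported from reactive astrocytes were higher in 5xFAD cortex in unequal shares. Of 4 other tested pan-reactive genes, 2 were higher in AD_Veh than in WT_Veh: the chemokine Cxcl10 (1.11 ± 0.757 and 0.0106 ± 0.0145 FPKM, log2 fold change 1.5) and the asparaginase Aspg (2.23 ± 0.198 and 0.534 ± 0.0992 FPKM, log2 fold change 1.40). Of 11 tested genes of the A1-type list, 5 were higher, led by the class I antigen H2-D1 (log2 fold change 1.51), Ggta1 (1.28), the complement inhibitor Serping1 (1.01) and the immunoproteasome subunit Psmb8 (0.96). Of 6 tested genes of the A2-type list, 2 were higher: Cd14, a lipopolysaccharide co-receptor that microglia also make, with 10.1 ± 2.24 FPKM in AD_Veh and 1.66 ± 0.644 FPKM in WT_Veh (log2 fold change 2.33), and Cd109 (0.67). Cxcl10 was also low in WT_HighP, at 0.0935 ± 0.0671 FPKM, so it passed the filter only through 5xFAD mice. Its call is therefore not separate support. Cd109 was low in WT_Veh as well, at 0.208 ± 0.113 FPKM. Some of these genes stand in more than 1 list, and microglia express several of them.

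Of 28 genes listed for plaque- and disease-associated astrocytes, 17 were higher in AD_Veh than in WT_Veh and 0 lower, with a median log2 fold change of 0.63. The largest values were those of complement C4b (68.9 ± 17.5 FPKM in AD_Veh and 5.99 ± 1.11 FPKM in WT_Veh), the lysosomal protease Ctsd (269 ± 48.6 and 77.2 ± 6.61 FPKM) and the tetraspanin Cd9 (42.1 ± 9.57 and 12.9 ± 1.30 FPKM), followed by Ggta1. Between AD_HighP and WT_HighP 8 of the 28 were higher. Of 21 tested inducers of reactivity, 8 were higher in AD_Veh than in WT_Veh, led by C1qa (97.4 ± 27.3 and 20.1 ± 6.65 FPKM), Spp1, C1qc and C1qb, and 6 under high P. C1q and Spp1 are chiefly microglial, and 7 of 10 microglial markers were called higher in both genotype comparisons, with summed levels of 277 to 365 FPKM in AD_Veh and 95.2 to 133 FPKM in WT_Veh. Their part in the astrocyte gene differences was not tested.

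**Figure D4:**
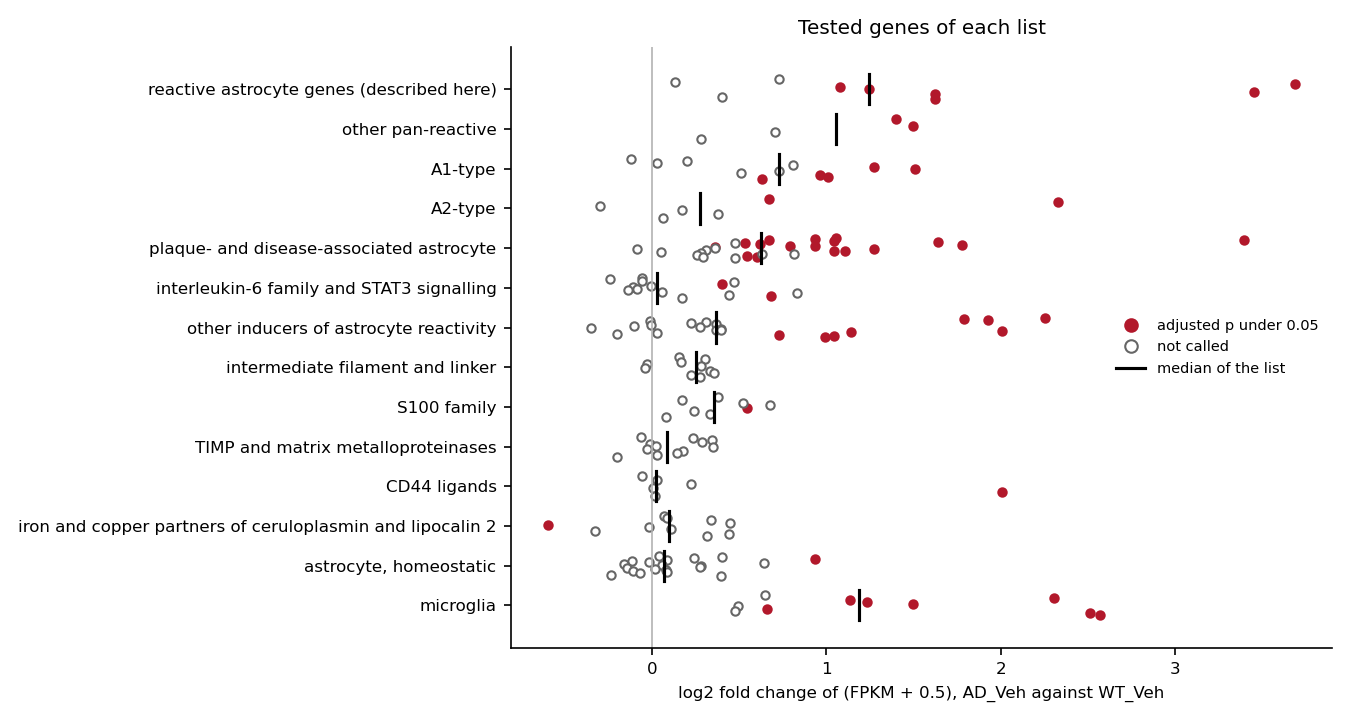
Log2 fold change of FPKM + 0.5 between AD_Veh and WT_Veh (horizontal axis) of each tested gene of the lists named on the vertical axis; filled points passed an adjusted p of 0.05 and vertical bars are list medians. The genes described here have a median of 1.24, near the 1.19 of microglial markers, and the homeostatic astrocyte markers have a median of 0.07.

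For high P against vehicle in 5xFAD mice, limma called 0 genes of all these lists; at an unadjusted p under 0.05 there were 0 pan-reactive, 0 A1-type, 0 A2-type, 1 plaque- and disease-associated and 2 inducer genes. The genes most alike to each member in their variation within groups, by Pearson's r over 25 libraries after removal of group means, included Eif3h (0.82), Eif3k (0.81) and Laptm5 (0.79) for Gfap, P2ry6 (0.81), Akr1b8 (0.79) and Fam129b (0.77) for Vim, and Sgpl1 (0.81), Igfbp5 (0.79) and S1pr3 (0.75) for Serpina3n. For Osmr they were Castor1 (0.71), Pxmp2 (0.68) and Cd84 (0.68), for Cd44 Nmb (0.79), Serpind1 (0.71) and Met (0.70), and for S100a6 Washc3 (0.79), Ezr (0.79) and Hspb6 (0.79). For Timp1 they were Hpdl (0.77), Tnfrsf1b (0.72) and Plekho1 (0.70), for Slc14a1 Rps18 (0.73), Itgb2 (0.73) and Rpl10 (0.73), and for Cp Cyp1b1 (0.88), mt-Te (0.86) and Efemp1 (0.85). These coefficients share libraries, depth and GC trend, and they are the highest among all genes tested.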

How the data were processed

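The deposited table holds gene FPKM values (fragments per kilobase of gene, scaled to library size) computed by the authors for 25 cortex libraries. A gene length in bp is deposited beside them. Libraries were poly(A)-selected, strand-specific and random-primed per the labels' protocols; alignment was with HISAT2 to mm10 per the submitters' processing notes, its version, the counting tool and the annotation being not given in the sources used here. FPKM times gene length gave whole multiples of a step in each library for 100% of nonzero values (tolerance 0.01 of a read), so reads could be recovered; these totals are the depths given, and read intervals near 0 cover counting error only.

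A gene entered the test with 0.5 FPKM or more in 5 or more libraries (16450 genes). Values were tested on log2(FPKM + 0.5) with limma 3.58.1 in R 4.3.3, with a mean per group over all 25 libraries, a variance trend and 20 residual degrees of freedom. The 7 comparisons are those of the text. P-values are two-sided and Benjamini-Hochberg adjusted over all tested genes, and the fit was tested on simulated data. Lcn2, the ratios and the Gfap correlations used permutations (exact, or 100000). For the correlations, values were shuffled after group means were removed, without allowing for those means, so these p-values are somewhat too small. Groups and mouse numbers came from the labels, which name separate mice per group and no litter or batch. All members were named, and of each list up to 4 called genes with the largest change. The members, lists and ratio tests were chosen with earlier results of these data known. Motifs were searched in RefSeq start windows. Alternatives covered pseudocount, filter, samples in the fit, mice left out, sex, GC content, high Ttr libraries, sample weights and voom.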

Additional observations from a re-analysis of the deposited data

Results flagged for a closer look

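Of 50 groups of 5 mice (10 genes in 5 groups), 4 had 1 mouse separated from the others by more than 0.71 of the group's range, and chance alone flags about 1 in 20 groups. Vim was 12.2 FPKM in WT_Veh mouse 2, with the next mouse at 6.56. Timp1 was 1.49 FPKM in the same mouse, with the next at 0.465. The meningeal markers summed to 12.5 FPKM in that mouse, within the 5.23 to 24.6 FPKM of its group. Lcn2 was 2.15 FPKM in AD_Veh mouse 4, with the next at 0.53, and 0.822 FPKM in AD_LowP mouse 5, with the next at 0.115. The summed neutrophil and red blood cell markers were 29.3 FPKM in AD_Veh mouse 4, in the middle of its group, and 51.9 FPKM in AD_LowP mouse 5, the highest of its group. That sum does not tell neutrophil from red blood cell RNA.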

How the results depend on the processing

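Gfap, Serpina3n, Vim, Slc14a1 and Osmr were called between AD_Veh and WT_Veh under all 23 alternatives, and S100a6 under 22 (females alone: log2 fold change 1.26, adjusted p = 0.15). Between AD_HighP and WT_HighP the count of 5 genes was 3 in males alone and 3 in females alone, and Vim was called under 10 of 23. High P against vehicle in wild type had 2 genes called with array weights (Gfap and S100a6) and 0 to 1 with 1 mouse left out, against 0. Gfap correlated with 5 genes after GC correction (Osmr and Cd44 added) and with 4 when the means of group by sex were removed (Osmr added, r = 0.69), against 3. The p-value behind Osmr in the count of 4 is too small, because the permutation did not allow for the extra means removed. All comparisons of P within 5xFAD mice and the interaction had 0 members called throughout.

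The counts of all genes called moved more: 811 with array weights, 309 in males and 215 in females for AD_Veh against WT_Veh (510 in the fit reported); 970 with array weights, 517 with only the groups compared, 131 without the high Ttr libraries, 124 in males and 76 in females for AD_HighP against WT_HighP (288 as reported). High P in wild type gave 0 (males alone, no filter, without the high Ttr libraries), 23 (GC correction), 218 (replicate block), 829 (sex as a term), 1513 (only the groups compared), 2278 (females alone) or 3371 (array weights), and 0 to 2724 with 1 mouse left out (522 as reported). Low P gave 2 without a filter and in males, and 751 in females; high P in 5xFAD gave 14 in females, and 0 in males, without a filter, by voom and without the high Ttr libraries (1 as reported); high against low P gave 329 in males; the interaction gave 9 with array weights and 1 without the high Ttr libraries. The cause was not tested.

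Directions turned only for values that were not called. Males alone: low P against vehicle S100a6 -0.0746 and Cp 0.139; high against low P Gfap 0.0379, Vim 0.129, S100a6 0.0192, Slc14a1 0.0721 and Cp -0.33; interaction Cd44 0.0872. Females alone: AD_HighP against WT_HighP Timp1 -0.0303; low P Gfap 0.0048, Serpina3n 0.25, Vim 0.297 and Timp1 0.413; high P in 5xFAD Timp1 0.0334; high against low P Cd44 0.0222 and Timp1 -0.379; high P in wild type Cd44 0.231 and Timp1 0.613; interaction Timp1 -0.58. GC correction: high against low P Slc14a1 0.0149; interaction Cp -0.0826; Gfap and Cp r 0.0929. Without the high Ttr libraries: high against low P Slc14a1 0.056 and Cp -0.0288; interaction Timp1 -0.126. The interaction of Cd44 was 0.0881 with array weights and 0.0495 by voom. With 1 mouse left out the ranges were -0.0576 to 0.229 (S100a6, low P), -0.219 to 0.0628 (S100a6, high P in 5xFAD) and -0.343 to 0.0536 (Timp1, high P in 5xFAD). For high against low P they were -0.187 to 0.0543 (Vim), -0.076 to 0.0359 (Slc14a1), -0.0666 to 0.159 (Cp), -0.231 to 0.0358 (Cd44) and -0.105 to 0.312 (Timp1). For the interaction they were -0.0319 to 0.172 (Cp), -0.189 to 0.0887 (Cd44) and -0.113 to 0.37 (Timp1). The log2 ratio of Gfap to Vim ranged from -0.178 to 0.0196 (low P) and from -0.14 to 0.058 (high against low P).

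The replicate block, with mouse numbers as blocks, kept 6 members called in vehicle-treated mice and 5 under high P, and 0 in every other comparison. Same-numbered mice correlated between -0.38 and 0.27 across comparisons, so the numbers were not taken as pairs. The test of edgeR on recovered reads was not run, because the deposited unit is FPKM; voom, males alone, females alone and mice left out of the ratios were chosen after seeing the data. Timp1 and Lcn2 are limited by depth, at no more than 22 and 88 reads.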
